A study of Mus musculus with 2 samples.

Results

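Semaphorins, plexins, neuropilins, slits, Robo receptors, netrins and Unc5 receptors were followed in cultured mouse ureters that had lost Fgfr1 and Fgfr2 from the Tbx18-Cre lineage. Members were taken by gene name from the gene spots of both arrays, with patterns that cover semaphorin classes 3 to 7, the plexins, both neuropilins and the slit, Robo, netrin and Unc5 genes. This gave 46 of 30011 genes, held by 66 of 39429 probes, each in 4 spots per array. Of the 46, 41 could be tested, because at least 1 genotype was well above background on both arrays.

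The mutant RNA came from ureters with 1 Cre allele at Tbx18, written Tbx18(cre/+), together with Fgfr1(fl/fl) and Fgfr2(fl/fl), called mutant here, and the control RNA from ureters labelled Fgfr1(fl/?);Fgfr2(fl/?), with no Cre allele listed. All ureters were of strain NMRI, dissected at E15.5 and grown on transwell membranes for 6 days. Cre at the Tbx18 locus acts in the mesenchyme around the ureteric epithelium and its descendants, so epithelium, vessels and nerves of the explant keep both receptors unless they arise from that lineage. The controls carried floxed alleles but, by the labels, no Cre, so receptor loss cannot be told apart from the Cre allele itself. Array 1 held male RNA with the mutant in Cy5, and array 2 held female RNA with the mutant in Cy3. The sex label and the dye thus change together from 1 array to the next and cannot be told apart, and the labels do not say how many embryos went into each RNA. Values are log2 ratios of mutant over control with the SD over the 2 arrays, or log2 normalised signals of a single RNA. With 2 arrays precision is low, and the p-values reflect the spread between these samples alone, some or all of which may be technical. The limma fit draws the variance of a gene mostly from all genes tested, with 7.45 prior against 1 residual degree of freedom. Its p-values and intervals thus do not measure the gene's own SD alone. Sema4b and Robo4, with SDs of 0.009 and 0.40, had standard errors of 0.104 and 0.143.

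Semaphorins are secreted or membrane-bound ligands that steer axons, endothelial cells and epithelial sheets, and plexins are the receptors that carry their signal to small GTPases and the cytoskeleton. Secreted class 3 semaphorins mostly bind a neuropilin that pairs with a plexin, while the membrane classes bind plexins directly. Slits signal through Robo receptors, and netrins through Dcc, neogenin and Unc5 receptors. In the developing urinary tract, Slit2 and Robo2 are known to limit where the ureteric bud grows out.

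Of the 41 genes tested, 5 rose and 1 fell in the mutant RNA at an adjusted p below 0.05, and 35 did not pass. That is 14.6% of the members, beside 3.79% of all 22070 genes (limma with Benjamini-Hochberg adjustment over all genes). By direction, 12.2% of members rose against 1.76% of all genes, and 2.44% fell against 2.03%. The members were chosen with earlier results of these data known. These shares, and those given further on, are therefore a description and not a test of the group. The genes that rose were the plexin receptor Plxna2, the secreted semaphorin Sema3b, the netrin Ntn3 and the membrane semaphorins Sema4b and Sema4a. The endothelial receptor Robo4 fell. These calls depended on the processing: all 6 were lost with the scanner software's own ratios (adjusted p from 0.0903 to 0.115), the authors' value table (0.0647 to 0.0952), median centring (0.121 to 0.175) and separate channels with no block for the array (0.250 to 0.392). The direction of each of the 6 was the same in all of these.

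The oligonucleotides that carry these calls are shown here because they say which stretch of each transcript was measured. Each probe is 60 bases long, and its last 30 bases are printed 5′ to 3′ as the deposited files give them, with the polyadenylation hexamer AATAAA in capitals where it falls in that stretch.
Plxna2: ttttgcaagccaaggacacaatttgtactg
Sema3b: taaagtaacgcAATAAAcacattatcagct
Ntn3: tcagttcagaaatagtgctctggccttctt
Sema4b: tgtatgtgataggaatatatgtatatgcgg
Sema4a: ctgcttgtcacagacaatttattttttatt
Robo4: aggaacttaattctataaaactgtaaagac
The hexamer, searched as AATAAA on the printed strand alone, lay in 10 of the 66 member probes (15.2%) and in 12.6% of all 39429 gene probes. By the probe coordinates of the files (mm9), the Plxna2 probe lies on chromosome 1 at 196642958 to 196643017 and the Sema3b probe on chromosome 9 at 107500686 to 107500745. The Ntn3 probe lies on chromosome 17 at 24341753 to 24341812, the Sema4b probe on chromosome 7 at 87371351 to 87371410, the Sema4a probe on chromosome 3 at 88239906 to 88239965 and the Robo4 probe on chromosome 9 at 37221547 to 37221606. A gene annotation of that build was not used here, so exons and untranslated regions are not assigned.

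**Figure D1:**
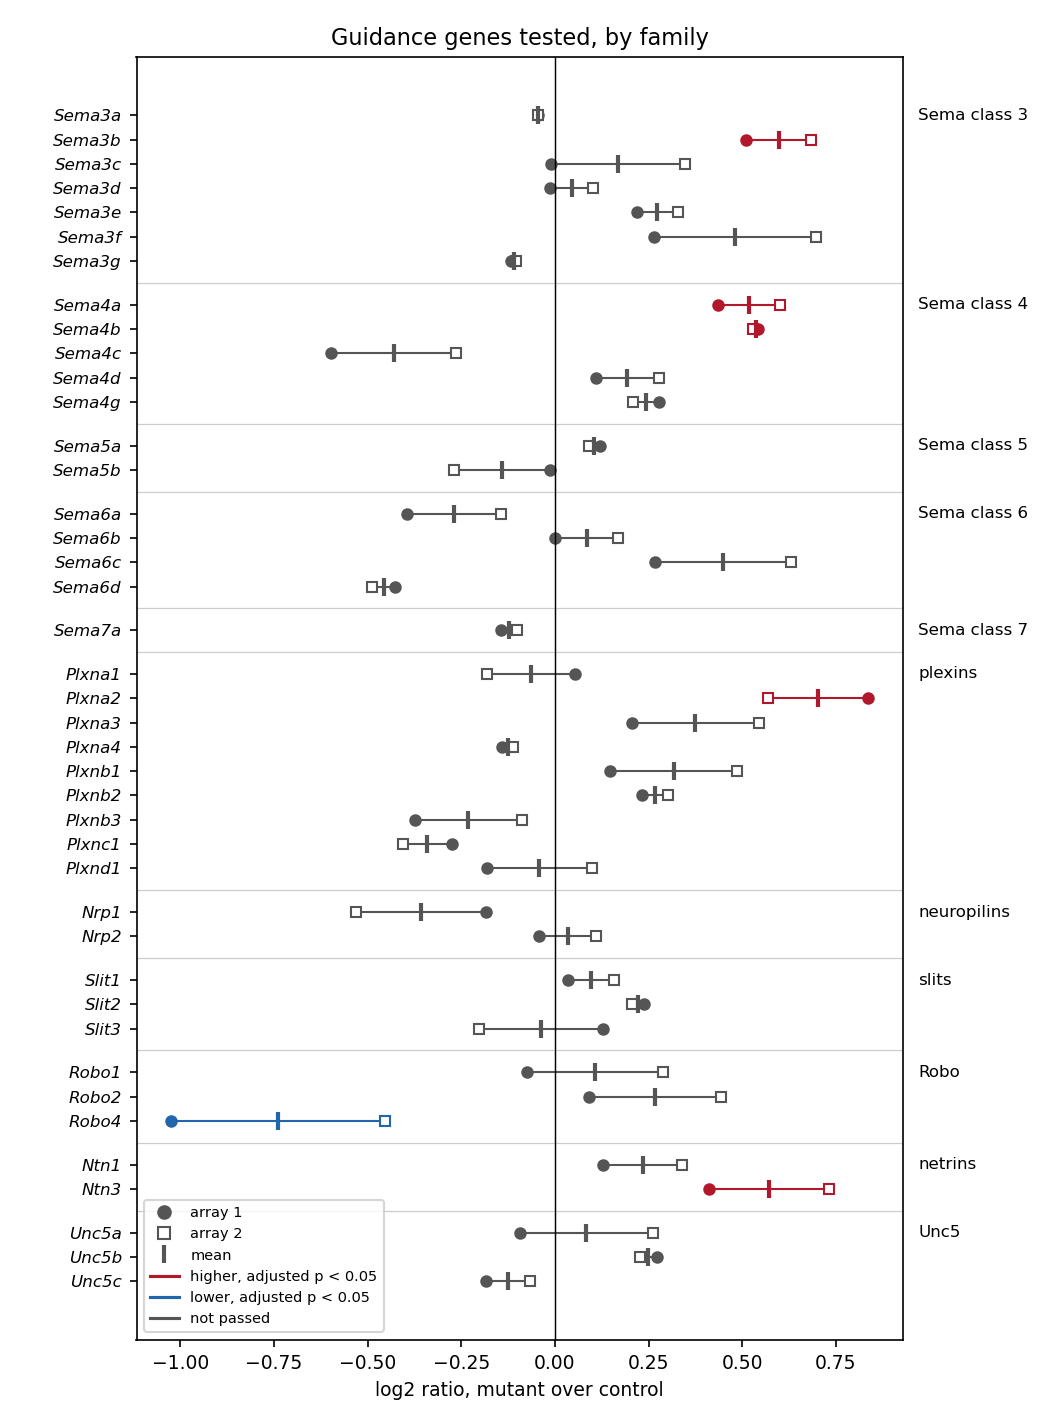
Log2 ratio of mutant over control for the 41 guidance genes tested, grouped by family; filled circles are array 1, open squares array 2 and vertical bars their mean, in red or blue where the adjusted p was below 0.05. Plxna2, at 0.70, lies farthest to the right and Robo4, at -0.74, farthest to the left.

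Among the secreted class 3 semaphorins, 1 of 7 rose and 6 did not pass. Sema3b, a secreted ligand of neuropilin and plexin receptors, had log2 signals of 11.71 and 12.07 in the mutant RNA of arrays 1 and 2, and of 11.19 and 11.39 in the control RNA. Both mutant values lay above both control values. Its ratio was 0.51 on array 1 and 0.68 on array 2, a mean of 0.60 ± 0.12 (SD, n = 2; limma adjusted p = 0.0285), or 1.51-fold. Sema3f, a ligand known to act through neuropilin 2, came next by p. It read 13.60 and 14.08 in mutant RNA and 13.33 and 13.39 in control RNA, again without overlap if the arrays are pooled. The ratio was 0.27 on array 1 and 0.70 on array 2, with a mean of 0.48 ± 0.31 (SD, n = 2; limma adjusted p = 0.0781), so it did not pass. The other class 3 genes lay closer to 0. Sema3e, which can bind plexin D1 without a neuropilin, had 0.27, Sema3c had 0.17 and Sema3d had 0.04. The axon repellent Sema3a had -0.04 and Sema3g had -0.11. For Sema3a the 95% interval of limma's fit, not adjusted over genes, ran from -0.28 to 0.19, so a change of 0.5 log2 in either direction lay outside it. The class median was 0.17 beside -0.02 over all genes, and turned to -0.07 under median centring, where the median over all genes was -0.14. By array it was -0.01 on array 1 and 0.33 on array 2.

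Class 4 semaphorins are membrane proteins that signal through B-type plexins and other receptors, and are known from immune cells and epithelia. Of 6 members, 5 were tested, of which 2 rose and 3 did not pass. Sema4b read 11.55 and 11.89 in mutant RNA and 11.01 and 11.36 in control RNA. Each array gave nearly the same ratio, 0.54 and 0.53, for a mean of 0.54 ± 0.01 (SD, n = 2; limma adjusted p = 0.0352). Sema4a read 12.47 and 12.80 in mutant RNA and 12.03 and 12.20 in control RNA. Its ratios were 0.44 and 0.60, a mean of 0.52 ± 0.12 (SD, n = 2; limma adjusted p = 0.0428). For both genes every mutant signal lay above every control signal. Sema4c, a ligand of plexin B2, had the brightest probe of the class and pointed the other way, at -0.60 on array 1 and -0.26 on array 2. Its mean of -0.43 ± 0.24 (SD, n = 2; limma adjusted p = 0.0843) did not pass. Sema4g had 0.24 and Sema4d, a ligand of plexin B1, had 0.19. Sema4f was not well above background in the mutant RNA on either array and was not tested.

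The remaining semaphorin classes had 7 tested members and no call. In class 6, membrane ligands of A-type plexins, Sema6d came closest. It read 10.79 and 10.34 in mutant RNA and 11.22 and 10.83 in control RNA, so the lower control value lay just above the higher mutant value. Its ratios of -0.43 and -0.49 gave -0.46 ± 0.04 (SD, n = 2; limma adjusted p = 0.0524). Sema6c had 0.27 and 0.63, a mean of 0.45 ± 0.26 (SD, n = 2; limma adjusted p = 0.0810). Sema6a had -0.27 and Sema6b had 0.08. In class 5, whose members carry thrombospondin repeats, Sema5a had 0.12 and 0.09, a mean of 0.11 ± 0.02 (SD, n = 2; limma adjusted p = 0.592) that turned to -0.15 under median centring. Sema5b had -0.01 and -0.27, a mean of -0.14 ± 0.18 (SD, n = 2; limma adjusted p = 0.499). The membrane-anchored Sema7a, a ligand of plexin C1 and integrins, had -0.14 and -0.10, a mean of -0.12 ± 0.03 (SD, n = 2; limma adjusted p = 0.522). Loosening the threshold to an adjusted p of 0.1 added Sema3f, Sema4c, Sema6c and Sema6d, so that 10 of 41 members (24.4%) passed beside 8.64% of all genes. With the probes of a gene averaged, Sema6c had 0.15 (limma adjusted p = 0.434) and Sema6d -0.21 (limma adjusted p = 0.251), so neither came near that threshold.

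All 9 plexins were tested, of which 1 rose and 8 did not pass. Plxna2, a receptor for class 3 semaphorin complexes and for class 6 semaphorins, had the highest mean ratio of the 41 genes. It read 13.54 and 13.57 in mutant RNA and 12.70 and 13.003 in control RNA, so the mutant signals nearly coincided and stood clear of both controls. The ratios were 0.84 and 0.57, a mean of 0.70 ± 0.19 (SD, n = 2; limma adjusted p = 0.0228), or 1.63-fold. The other A-type plexins had means of 0.37 (Plxna3), -0.06 (Plxna1) and -0.13 (Plxna4). The B-type plexins, which bind class 4 semaphorins, had 0.32 (Plxnb1), 0.27 (Plxnb2) and -0.23 (Plxnb3). Plxnc1, the receptor of Sema7a, read 10.04 and 9.90 in mutant RNA and 10.32 and 10.31 in control RNA. Both mutant signals lay below both controls, and its ratios of -0.28 and -0.41 gave -0.34 ± 0.09 (SD, n = 2; limma adjusted p = 0.116). Plxnd1, a receptor of endothelial cells, had -0.18 on array 1 and 0.10 on array 2, with a mean of -0.04. Several of these intervals left out 0 before adjustment, such as 0.10 to 0.65 for Plxna3 and 0.03 to 0.51 for Plxnb2, although neither gene passed over all genes.

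Neuropilins serve as co-receptors for class 3 semaphorins and for vascular endothelial growth factors. Nrp1 read 10.76 and 10.20 in mutant RNA and 10.94 and 10.73 in control RNA. The mutant value of array 1 lay above the control value of array 2, so the groups overlapped. The ratios were -0.18 and -0.53, a mean of -0.36 ± 0.25 (SD, n = 2; limma adjusted p = 0.136). Nrp2 had -0.04 and 0.11, a mean of 0.03 ± 0.11 (SD, n = 2; limma adjusted p = 0.884). Its 95% interval ran from -0.21 to 0.28, and its mean turned to -0.21 under median centring.

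**Figure D2:**
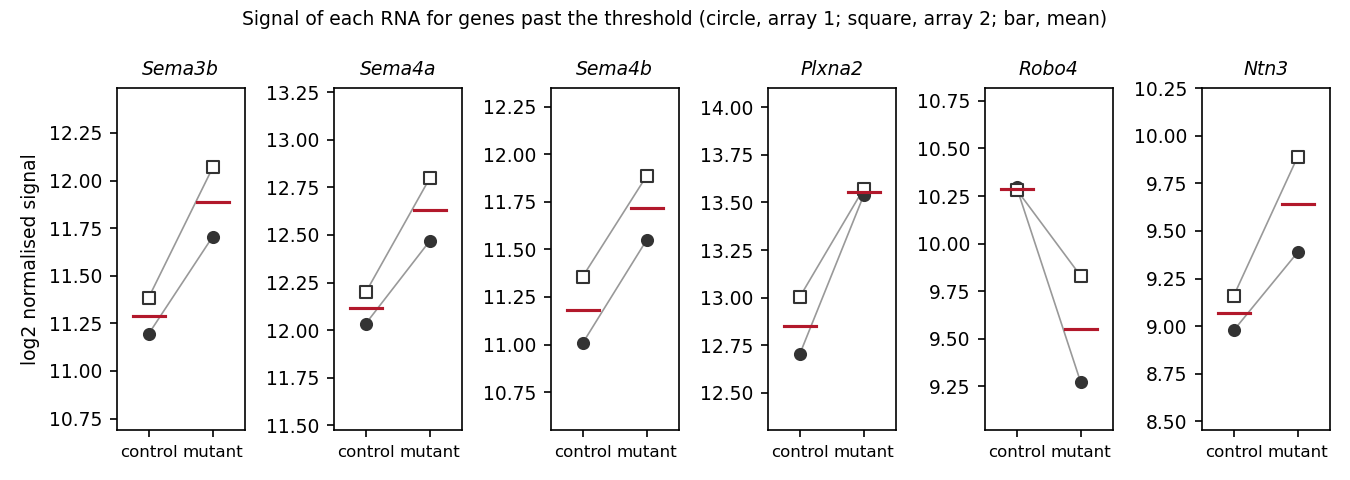
Log2 normalised signal of each RNA for the 6 guidance genes with an adjusted p below 0.05; circles are array 1, squares array 2, lines join the RNAs of an array and red bars are means, and each panel spans the same range of log2 units around its own centre. Plxna2 has mutant signals of 13.54 and 13.57, while Robo4 has control signals of 10.30 and 10.28.

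The slits gave no call among 3 tested genes. Slit2, the ligand of Robo1 and Robo2, read 11.08 and 11.25 in mutant RNA and 10.84 and 11.05 in control RNA. Its ratios of 0.24 and 0.20 averaged 0.22 ± 0.02 (SD, n = 2; limma adjusted p = 0.254), with a 95% interval from -0.02 to 0.46. Slit1 had 0.04 and 0.16, a mean of 0.10 ± 0.09 (SD, n = 2; limma adjusted p = 0.630). Its dim probe was well above background in mutant RNA on 1 array only. Slit3 had 0.13 on array 1 and -0.20 on array 2, with a mean of -0.04.

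Among the Robo receptors 1 of 3 tested genes fell and none rose. Robo4, a receptor expressed in endothelial cells, read 9.27 and 9.83 in mutant RNA and 10.30 and 10.28 in control RNA. The controls were nearly equal and both mutant signals lay below them. The ratios were -1.02 on array 1 and -0.45 on array 2, a mean of -0.74 ± 0.40 (SD, n = 2; limma adjusted p = 0.0350), or 1.67-fold lower. The SD of 0.40 was the largest between-array SD of the 41 genes. Robo2, the receptor tied to kidney induction, had 0.09 and 0.44, a mean of 0.27 ± 0.25 (SD, n = 2; limma adjusted p = 0.237). Robo1 had -0.08 and 0.29, with a mean of 0.11. Robo3 was not well above background in either genotype on either array and was not tested.

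Endothelial markers moved the same way as Robo4. Of 13 tested genes in a list of endothelial markers, 7 fell and none rose, with a median of -0.49 and a range from -0.88 to 0.17. Their summed linear signal was 12395 and 14401 in mutant RNA and 16793 and 16700 in control RNA, with 12 of 13 well above background in the mutant RNA of array 1 and all 13 in the other RNAs. Fewer endothelial cells and less RNA per cell cannot be told apart in RNA of whole explants, and the part of the endothelial markers in the fall of Robo4 was not tested. Arterial endothelial markers had 3 of 7 lower and a median of -0.32, and share Sox17 with the endothelial list. Their summed signal was 4961 and 6023 in mutant RNA and 6025 and 5609 in control RNA, so it was lower on array 1 and higher on array 2. Of other members known from endothelial cells, Nrp1 had -0.36, Sema3g -0.11 and Unc5b 0.25, and none of these passed. Plxnd1 had -0.04 by its brightest probe, which did not pass, and -0.49 by its other probe, which fell in the fit over probes (limma adjusted p = 0.0481). Differences between these genes and Robo4 were not tested.

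Of the 4 netrin genes on the array, 2 were tested and 1 rose. Ntn3, a secreted laminin-related guidance protein, read 9.39 and 9.89 in mutant RNA and 8.98 and 9.16 in control RNA. Mutant and control signals did not overlap, and the ratios of 0.41 and 0.73 gave 0.57 ± 0.23 (SD, n = 2; limma adjusted p = 0.0412). Ntn1, the best studied netrin, had 0.13 and 0.34, a mean of 0.23 ± 0.15 (SD, n = 2; limma adjusted p = 0.252). Its second probe, and the probe of the basement membrane netrin Ntn4, were not well above background in any of the 4 RNAs. Ntn5 was above background in 1 control RNA only and was not tested.

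The Unc5 family, netrin receptors that mediate repulsion, had 3 tested genes and no call. Unc5b, which is also found in vessels, had 0.27 and 0.23, a mean of 0.25 ± 0.03 (SD, n = 2; limma adjusted p = 0.207). Unc5c had -0.18 and -0.07, a mean of -0.12 ± 0.08 (SD, n = 2; limma adjusted p = 0.524), which turned to 0.07 when its probes were averaged. Unc5a had -0.09 on array 1 and 0.26 on array 2, with a mean of 0.08. Unc5d was not well above background in any RNA and was not tested.

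The arrays can be set side by side over all 41 genes. Ratios had the same sign on both arrays for 32 genes, 19 above 0 and 13 below, and opposite signs for 9. Over all genes 33.5% had opposite signs, against 22.0% of the members. In the separate channels, 22 of the 41 genes (53.7%) had mutant signals both above or both below the control signals, beside 45.1% of all genes, so a lack of overlap was common among all genes too. The median ratio of the members was 0.10 over both arrays, 0.04 on array 1 and 0.17 on array 2. Over all genes it was -0.02. Under median centring the member median was -0.09 and that of all genes -0.14. A ratio beyond 0.5 log2 in either direction was found in 6 members (14.6%) and in 4.12% of all genes. Replicate spots of the members' brightest probes had a median SD of 0.04, and the arrays one of 0.12.

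**Figure D3:**
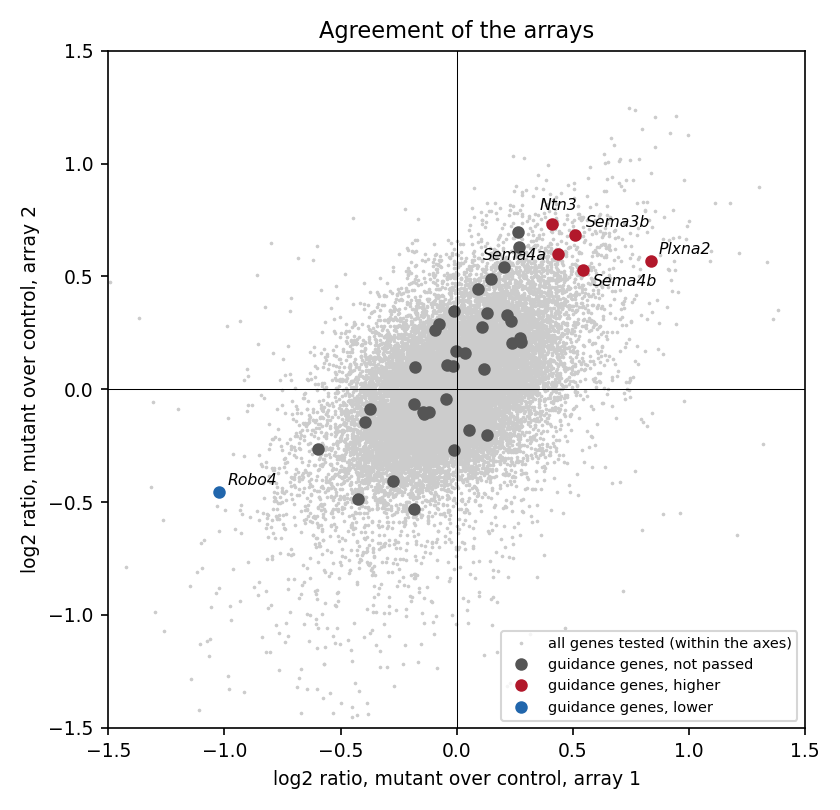
Log2 ratio of mutant over control on array 1 (horizontal) and array 2 (vertical); grey dots are all genes tested that fall within the axes and larger dots the 41 guidance genes, in red or blue where the adjusted p was below 0.05. The 5 genes that rose sit at 0.41 or more on both arrays, and Robo4 lies at -1.02 and -0.45.

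Several of these genes have more than 1 tested probe, and the probes often differed. Of 13 such members, 10 had tested probes with means of opposite sign (76.9%), beside 1924 of 5395 genes overall (35.7%). For 3 of the 10, Nrp2, Robo1 and Sema3a, the probes differed by under 0.2 log2, and for the other 7 by 0.28 to 0.60. The 6 called genes had 1 probe each, so none of them has a second probe to set beside it. The widest gaps were in Sema6c, Sema4d, Sema6d and Plxnd1, whose probe ends are shown to mark which stretch gave which ratio, again with AATAAA in capitals.
Plxnd1, brightest probe: tttatAATAAAagcctgccgggaaaaccta
Plxnd1, other probe: tgtctgtgtccctcatccagagggggcctt
Sema4d, brightest probe: gtacccaAATAAAccagaagctttatcgtt
Sema4d, other probe: gtgtcttggctggctccacactgccattcg
Sema6c, brightest probe: aaaacgaagctgctgcgtgatttgaatttc
Sema6c, other probe: gacggaagctgctcgcgcccgcccgtcgag
Sema6d, brightest probe: agaggggcgagtgtgtgtgtgtgtgtgtgt
Sema6d, other probe: tgccaccaaagccttcctttgttccgcaaa
For Plxnd1, Sema4d and Sema6c the brightest probe holds the hexamer and the other does not (in Sema6c it lies before the printed stretch), while neither Sema6d probe holds it.

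The Plxnd1 probes start 486 bases apart on chromosome 6. The brighter read -0.18 and 0.10, whereas the dimmer, at 115905315 to 115905374 (mm9), read -0.68 and -0.29, a mean of -0.49 ± 0.27 (SD, n = 2; limma adjusted p = 0.0481 over all tested probes). In that fit over probes, 8 of 56 member probes (14.3%) and 5.09% of all probes passed. Besides the probes of the 6 called genes they were this Plxnd1 probe and the brightest Sema6d probe. The Sema4d probes start 15155 bases apart and gave 0.19 and -0.38, the latter with -0.37 on array 1 and -0.38 on array 2. The Sema6c probes start 708 bases apart and gave 0.45 and -0.15. For Sema6d, 661 bases separated a probe at -0.46 from a much dimmer one at 0.04. The brighter Sema6d probe ends in a run of gt repeats, and whether it also binds other transcripts was not tested. The other members with probes on both sides of 0 had smaller ratios. Nrp2 had 0.03 and -0.12, Robo1 had 0.11 and -0.02, Sema3a had -0.04 and 0.09, and Sema6a had -0.27 and 0.01. Robo2 had 0.27, 0.04 and -0.07, Sema5b had -0.14, -0.29 and 0.00, and Unc5c had -0.12 and 0.26. Which transcript forms these probes detect was not tested. Sema3c had 0.17 and 0.04. Plxnc1 had -0.34 by its brightest probe, while its other probe read 0.04 and -0.05 on the arrays, a mean of -0.00.

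**Figure D4:**
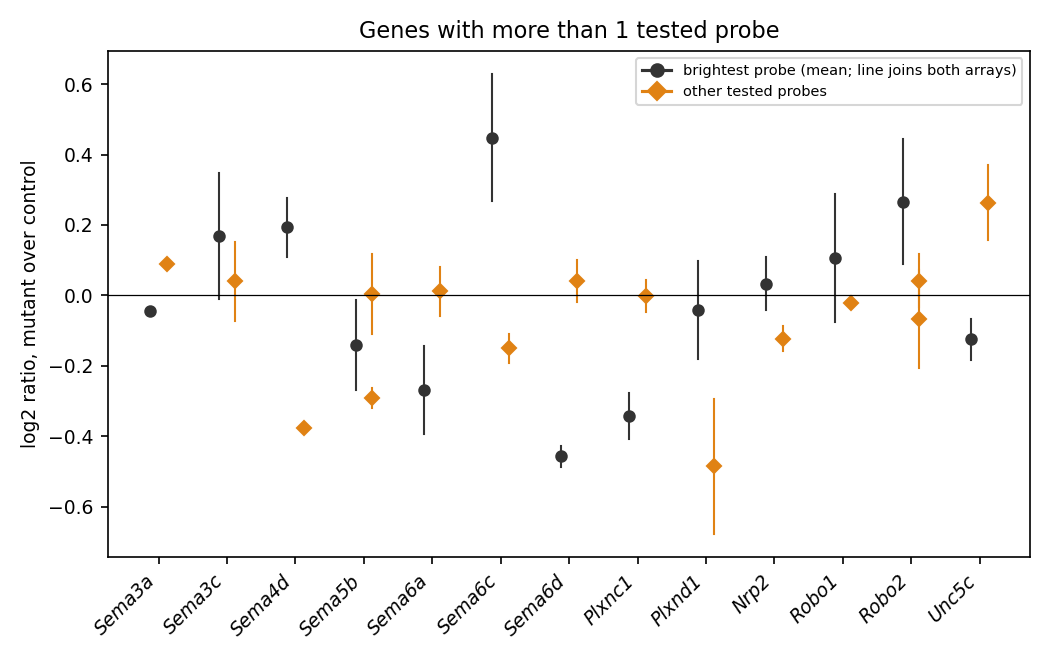
Log2 ratio of mutant over control for the 13 guidance genes with more than 1 tested probe; dark circles are the brightest probe, orange diamonds the others, and lines join the values of both arrays. The probes of Sema6c stand at 0.45 and -0.15 and those of Sema4d at 0.19 and -0.38.

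Ligands and receptors known to bind each other can be read together. Plxna2 rose while its ligand Sema6a had -0.27 (limma adjusted p = 0.207). Sema3f had 0.48 and its co-receptor Nrp2 0.03. Sema7a had -0.12 and Plxnc1 -0.34. Sema3e had 0.27 and Plxnd1 -0.04, and Sema4d had 0.19 and Plxnb1 0.32. Sema4c had -0.43 and Plxnb2 0.27. Slit2 had 0.22 beside 0.11 for Robo1 and 0.27 for Robo2, and Ntn1 had 0.23 beside 0.25 for Unc5b. Plxna2 is the only called gene among these pairs, so by their choice none could have both partners called. The differences between partners were not tested. The pairs are examples and not a full list. All values are those of the brightest probes. Other tested probes had -0.38 for Sema4d, -0.49 for Plxnd1, and 0.04 and -0.07 for Robo2. Sema6a, Nrp2, Plxnc1 and Robo1 also had other tested probes, whose values are given above. Sema3b, a class 3 ligand, and Plxna2, a receptor for class 3 complexes, both rose, at 0.60 and 0.70, and are not counted here as a pair.

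Other genes of these pathways were read from 5 lists of partners and effectors, 95 genes in all, of which 91 were tested. Of these 1 rose and 3 fell, with a median of 0.01. The 4 calls are 4.4% of the list, close to the 3.79% of all genes, and none of the 4 stayed called with the software's ratios, median centring or separate channels. Among netrin and Unc5 ligands and effectors 1 of 14 rose. It was Flrt1, of the FLRT family of adhesion proteins that bind Unc5 receptors, at 0.85 and 0.79, a mean of 0.82 ± 0.04 (SD, n = 2; limma adjusted p = 0.0147). Its relative Flrt3 had 0.26 (adjusted p = 0.191). Among netrin receptors and related genes 1 of 12 fell: Mcam, an adhesion molecule of vessels, had -0.66 and -0.37, a mean of -0.52 ± 0.21 (SD, n = 2; limma adjusted p = 0.0499). The netrin-related Ntng1 had 0.62 ± 0.39 (adjusted p = 0.0520).

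Among slit and Robo partners 1 of 15 fell. It was the chemokine receptor Cxcr4, whose signalling slits are known to dampen, at -0.39 and -0.70, a mean of -0.54 ± 0.22 (SD, n = 2; limma adjusted p = 0.0457). The slit-binding dystroglycan Dag1 had 0.45 ± 0.05 (adjusted p = 0.0546). Of 32 plexin and semaphorin effectors 1 fell. Dpysl5, of the collapsin response mediator family found in neurons, had -0.78 and -0.56, a mean of -0.67 ± 0.16 (SD, n = 2; limma adjusted p = 0.0235). The GTPase Rnd1, which binds plexins, had -0.57 ± 0.32 (adjusted p = 0.0512). None of 18 semaphorin co-receptors and neuropilin ligands passed; Erbb2 had 0.42 (adjusted p = 0.0724) and Nrcam -0.36 (adjusted p = 0.106).

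Markers of several other cell types moved beside these genes. Of 12 neuronal markers 7 fell and 1 rose, with a median of -0.55 and a range from -1.004 to 0.60. Their summed signal was 58560 and 51603 in mutant RNA and 86926 and 59785 in control RNA, all 12 well above background in every RNA, and their part in the fall of Dpysl5 was not tested. Of 6 Schwann and glial markers tested none passed, with a median of -0.06 and a range from -0.39 to 0.37. Negative ratios on both arrays were found for 3 of them and positive ratios on both for 1. Their summed signal was 55904 and 62143 in mutant RNA and 40204 and 52819 in control RNA. The sum was thus higher in mutant RNA on both arrays although the median ratio was negative. In each mutant RNA 4 of the 6 were well above background, and in each control RNA all 6 were. Of 13 urothelial and epithelial markers 5 rose and none fell, with a median of 0.45 and a range from -0.46 to 1.00. Their summed signal was 469464 and 571326 in mutant RNA and 341189 and 353573 in control RNA, and their part in the rises of Sema3b, Sema4a, Sema4b, Plxna2 and Ntn3 was not tested. Mesenchyme and fibroblast markers had a median of 0.43 and a range from -0.96 to 0.73, with 1 of 12 higher and 2 lower. Their summed signal was 333044 and 341721 in mutant RNA and 251317 and 277296 in control RNA. Of 5 mesothelial markers 2 rose and none fell, with a median of 0.22. The part of both these lists in the same 5 rises was not tested either. Adipocyte markers had the lowest median of the lists, -1.78, with 7 of 8 lower, and a summed signal of 98485 and 56233 in mutant RNA and 147335 and 136136 in control RNA. Macrophage markers had a median of -0.42, with 4 of 13 lower and a range from -0.79 to -0.20. Their summed signal was 123306 and 80816 in mutant RNA and 151651 and 119890 in control RNA, and their part in the ratios of Plxnc1 and Cxcr4 was not tested. Smooth muscle markers, which with the urothelial ones check the labelled tissue, were well above background in all 4 RNAs for 8 of 8 genes and had a median of -0.01.

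As a check of the labels, Fgfr1 had a ratio of -0.33 ± 0.15 (SD, n = 2; limma adjusted p = 0.134), Fgfr2 rose by 0.56 ± 0.02 (adjusted p = 0.0309) and Tbx18 had 0.19 ± 0.06 (adjusted p = 0.320). The sources used here do not give the floxed exons, so these probes may lie outside the deleted parts and then check nothing.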

How the data were processed

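The deposited scanner files hold intensity values per spot, and the submitters' processing notes name Feature Extraction 10.7.3.1 as the software. The log10 ratios of the software, red over green of its processed signals, are used as an alternative, per the file headers. Each probe also has a score in the table the authors deposited, which reads as a signed fold change. Across 39429 probes its correlation with log red over green was 0.84 (array 1) and -0.85 (array 2), so it runs as mutant over control. Both medians were 1, with 8097 probes of array 1 and 9100 of array 2 exactly at that value. How its values were averaged or centred stays unknown.

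Mean and background signals were corrected with normexp (offset 50) and normalised by loess in each array with limma 3.58.1 in R 4.3.3, with control and outlier spots at weight 0 (3.17% and 3.65% of gene spots were outliers and were left out). Spots of a probe were averaged, and a gene was represented by its brightest tested probe. A probe was tested if, in 1 genotype or both, over 0.5 of its remaining spots stood well above background on each array. Ratios were turned to mutant over control and tested against 0 with lmFit and eBayes, two-sided, over 22070 genes with 1 residual degree of freedom and Benjamini-Hochberg adjustment. Signals of single RNAs are after Aquantile normalisation. Names came from an accession for 28328 probes, a symbol for 3400 and the file for 7701, through a RefSeq table of GRCm38.p6 used for names alone. In 10 simulated pairs with 200 changed genes among 22070, the fit found 31.2% of genes changed by 0.5 log2 and 99.6% of those changed by 1. Between 1.99% and 22.7% of its calls were false. The simulated errors were independent and drawn from the fitted variances, with no effect of dye, sex or array. These shares therefore do not give the share of false calls in the real data, which was not estimated. Members and gene lists were chosen with earlier results of these data known. Every member is named; array values are given for called members and the 2 of smallest p in each family, and for called partners and the 2 of smallest p in each list.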

Additional observations from a re-analysis of the deposited data

How the results depend on the processing

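Members called higher numbered 0 with the software's ratios, median centring, separate channels or the authors' value table. Members called lower numbered 0 in the same 4 settings, 2 under a trended variance or with both channels required above background (Sema6d joined Robo4), and 3 at an adjusted p of 0.1. Partner genes called higher numbered 0 with the software's ratios, median centring or separate channels, 2 without the offset, 3 with both channels required, probes averaged or a trended variance, and 7 at an adjusted p of 0.1. Those called lower numbered 0 with the software's ratios, median centring, separate channels or the value table, and 1 without the filter on dim probes. Ratios computed directly from the software's processed signals, an alternative chosen after seeing the data, gave 0 calls in each of these 4 counts and 10 over all genes. Over all genes, those settings gave 10 calls (software), 0 (median centring, with 5584 at an unadjusted p below 0.05, 13 of them members), 3 (separate channels), 170 (value table), 713 without a filter, 1075 without an offset, 1100 with both channels required, 965 with probes averaged and 1415 with a trend, against 836. The member median was -0.0851 under median centring and lay between 0.04 and 0.17 when 1 array was left out. Median centring took the genes above 0 from 10154 to 6204 of all 22070, and from 25 to 19 of the members, so such turns were common among all genes. Of the 41 members, 6 changed sign under median centring: Sema5a (-0.15), Nrp2 (-0.21), Robo1 (-0.09), Sema3c (-0.07), Sema3d (-0.09) and Unc5a (-0.12). With probes averaged 4 did: Nrp2 (-0.0448), Unc5c (0.0694), Sema3a (0.02) and Sema4d (-0.09). Leaving out array 2 turned 8 and leaving out array 1 turned 1. These are the same 9 members whose arrays had opposite signs, so they add nothing to that count. No member that turned in any of these settings was a called gene. The cause of the turns under median centring was not tested. All 6 called members kept their direction in every setting, also on each array alone, and stayed past the threshold without an offset, without a filter, with both channels required, with probes averaged and with a trend. Each array carries its own mutant and control RNA, so the main ratios pair them already; separate channels without that block gave 0 member calls. Depth here is signal over background, which left 5 members untested.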
